A study of Mus musculus with 6 samples.

Results

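The Notch genes described here are 3 receptors (Notch1, Notch2, Notch3), 3 ligands (Jag1, Jag2, Dll1) and 3 targets (Hes1, Hey1, Nrarp), chosen by name from the 32285 genes of the deposited tables, and all 9 were found in each of the 6 libraries. They were followed in organoids of mouse esophageal epithelium by droplet 3′ RNA sequencing with unique molecular identifiers (UMIs). The founder cells came from C57BL6 mice and were sorted as integrin-b1 positive, DAPI negative basal cells with a low or a high signal of Cyto-ID, a dye that stains autophagic vesicles. After 15 days in Matrigel, 3 libraries came from organoids of Cyto-ID Low founders and 3 from Cyto-ID High founders, each group labelled F2, M3 and F6. The culture medium, which held EGF, Noggin/R-Spondin-conditioned medium and the inhibitor Y27632, was shared by both groups, and no group carried a genetic change per the labels. The sort was applied to the founders and not to the cells sequenced. The labels do not say whether the libraries came from separate animals, so p-values between founders measure the spread between these libraries, which may be technical. For comparisons of cells within libraries, p-values measure how far the within-library differences vary over the same libraries.

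Notch signalling passes between touching cells. A ligand of the Jagged or Delta family on one cell binds a Notch receptor on its neighbour, proteases then cut the receptor, and the freed intracellular part joins RBPJ in the nucleus to switch on targets such as the Hes and Hey repressors and Nrarp, a feedback inhibitor of the pathway. In stratified squamous epithelia, including the esophagus, Notch signalling is known for its part in moving basal cells into differentiation.

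In all, 25154 of 26808 barcodes had at least 500 detected genes and were kept, between 2667 and 5617 per library. Libraries differed in depth: for labels F2, M3 and F6 in turn, a kept cell held a median of 7789, 6080 and 2716 UMIs with Low founders and 10038, 2357 and 1940.5 with High founders. Low and High stand for Cyto-ID Low and Cyto-ID High throughout, and values per group follow that order of labels. Any pair of libraries shared at most 8 barcodes. All 8 basal, 7 suprabasal and 8 superficial keratinocyte markers were present in every library, while the 6 immune markers summed to at most 0.110 CPM (a cell's UMIs of a gene per 1000000 of its UMIs, averaged over cells), with Ptprc at 0, and the 6 fibroblast markers to between 0.272 and 4.95 CPM. Krt8, Krt18, Krt20 and Muc5ac, listed as markers of columnar epithelium, summed to between 164 and 971 CPM, with Muc5ac at 0.0143 CPM or less.

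Cells were divided by Krt13, a keratin of the suprabasal esophageal epithelium, at a deposited value of 3, which is a natural log of normalised UMIs. The share of cells at 3 and more was 41.9%, 45.2% and 43.8% with Low founders and 29.1%, 50.5% and 27.4% with High founders. The division is a range and not a cell type, since 13.6% of kept cells lay between 2.5 and 3.5. Other genes moved across it: Col17a1, a hemidesmosome collagen of basal cells, ranged from 344 to 764 CPM over libraries below 3 and from 63.5 to 144 CPM above. The 8 superficial markers summed to between 1052 and 4438 CPM below 3 and between 13676 and 56226 CPM above. The 8 basal markers together overlapped between the layers, at 10519 to 23552 CPM and 9362 to 17945 CPM. Cells above the threshold also had more UMIs in every library, so the layer differences were also computed with cells thinned to 1000 UMIs. Cells with fewer UMIs, between 10 and 115 per library, were left out of that setting. The layers were still divided by the unthinned Krt13 value.

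The members lie apart in the mouse genome (GRCm38). Notch1, Jag1 and Nrarp are on chromosome 2 at chr2:26457903-26516663, chr2:137081456-137116644 and chr2:25180758-25183339. Notch2 (chr3:98013527-98150361) and Hey1 (chr3:8663359-8667256) are on chromosome 3, and Notch3 (chr17:32120820-32166852) and Dll1 (chr17:15367354-15376872) are on chromosome 17. Jag2 is at chr12:112907819-112929776 and Hes1 at chr16:30064384-30067796. All 9 are annotated as protein-coding genes, and the 3′ libraries give 1 value per gene, with no view of exons or isoforms. Promoter windows of 7 of the 9 members could be matched in RefSeq (GRCm38.p6), and Hes1 and Hey1 could not. The 250 bases before the start of Notch3 (chr17:32166891-32167140, minus strand) and of Nrarp (chr2:25180508-25180757, plus strand) are shown because these 2 members rose together with Krt13. Capitals mark matches to the E-box CACGTG or the N-box CACNAG, motifs bound by Hes and Hey repressors, on either strand.
Notch3: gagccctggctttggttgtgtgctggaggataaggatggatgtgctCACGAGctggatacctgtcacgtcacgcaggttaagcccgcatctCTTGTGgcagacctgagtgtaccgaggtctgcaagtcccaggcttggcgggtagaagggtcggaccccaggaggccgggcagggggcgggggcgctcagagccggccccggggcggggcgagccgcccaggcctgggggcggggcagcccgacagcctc
Nrarp: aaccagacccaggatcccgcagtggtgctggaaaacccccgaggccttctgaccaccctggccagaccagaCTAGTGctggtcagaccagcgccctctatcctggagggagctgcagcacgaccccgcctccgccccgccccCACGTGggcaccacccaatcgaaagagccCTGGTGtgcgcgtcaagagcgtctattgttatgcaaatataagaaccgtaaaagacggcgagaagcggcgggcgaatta
The Nrarp window held CACGTG at 108 bases before the start, and CACNAG at 179 and 79 bases. The Notch3 window held CACNAG at 204 and 159 bases before the start. The 7 members had 8 windows, 2 of them of Dll1. CACNAG was in windows of 4 of the 7 members, among them Notch1, which fell with Krt13, at 108 bases, and Notch2, at 247 bases, and CACGTG was in that of Nrarp alone. The RBPJ core TGGGAA was in none of the 8 windows. Some of these windows overlap annotated exons of their gene, with 250 of 250 bases for Jag2, 153 in 1 Dll1 window and 124 for Jag1. The Notch1 window (chr2:26503823-26504072) lies inside the annotated span of Notch1. Of 32851 promoter windows of the same length, which belong to 27025 genes and are counted per window, 6.02% held CACGTG, 36.7% held CACNAG and 21.6% held TGGGAA.

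The first question was how the pathway's parts were arranged between the Krt13-low and Krt13-high layers of the same organoids. Ligands and Notch1 were lower in the Krt13-high layer, while Notch3 and the target Nrarp were higher there. Of the 7 members that reached 1 CPM in at least 3 libraries of each layer, 3 were called higher and 3 lower with limma (trimmed-mean scaling, library as a block, adjusted p under 0.05). Dll1 entered the fit through the Krt13-low layer alone, so its call was set by the filter and is not counted, and Hey1 was too low to test. Over all 12138 genes tested, 31.3% were called higher and 28.5% lower, so most genes differed between the layers and the members' share of calls is to be read against that. Scaling mattered: plain CPM called 1821 genes higher and 6960 lower, and moved the median log2 difference of all genes from -0.00 to -0.37. Differences below are on the log2(CPM + 1) scale, relative to the first of these medians, with standard errors over libraries. This scaling makes rises larger and falls smaller than in plain CPM. A fitted rise and a fitted fall of like size are therefore not equal in plain CPM.

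Jag2, a Jagged-type ligand, was the ligand with the largest fitted difference, with Dll1 not counted. Below a Krt13 value of 3 it stood at 61.0, 70.6 and 52.8 CPM in the Low libraries and at 55.3, 53.8 and 48.2 CPM in the High libraries. Above it, the values were 4.87, 8.33 and 2.78 CPM in the Low libraries and 7.43, 9.14 and 3.35 CPM in the High libraries. The layers did not overlap, and every library was lower in the Krt13-high layer. The fitted difference was -2.75 ± 0.16 on the log2 scale, 6.74-fold lower (limma, adjusted p = 2.05e-08). Its size depended on where the layers were divided, at -1.67 with the division at a Krt13 value of 2 and -3.55 at 4, and it was called under both. Of the 12138 genes tested, 6 had a lower fitted difference.

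Jag1, the other Jagged-type ligand, was also lower in the Krt13-high layer of all 6 libraries, but its level depended on the library. Below 3 it stood at 210, 102 and 112 CPM in the Low libraries and at 201, 51.8 and 179 CPM in the High libraries. Above 3 it stood at 59.1, 53.7 and 25.8 CPM in the Low libraries and at 64.3, 26.5 and 76.3 CPM in the High libraries. The layers overlapped across libraries, because the Krt13-low cells of the Cyto-ID High M3 library lay under the Krt13-high cells of several others, while within each library the ratio of the layers was between 0.230 and 0.527. The fitted difference was -1.01 ± 0.12, 2.02-fold lower (limma, adjusted p = 1.83e-05).

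Dll1, a Delta-type ligand, was scarce, with 174 UMIs in all kept cells. Of these, 165 were in the Krt13-low layer and 9 in the Krt13-high layer, a 15.4-fold difference per UMI sequenced with all libraries pooled. The Cyto-ID High F2 library held 66 of the 165. Its CPM below 3 ranged from 1.34 to 2.80 over libraries, and above 3 it was 0 in 3 libraries and at most 0.438 in the others. Every library had less Dll1 in the Krt13-high layer. Pooled in the same way, Jag2 was 10.7-fold and Jag1 3.49-fold lower. From the UMI counts alone, the 95% interval of the Dll1 ratio was 7.94 to 34.4. It holds the Jag2 ratio and ignores the spread between libraries. The Dll1 values are a description, since Dll1 passed the filter on low values only through the layer where it was high.

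Among the receptors, Notch1 and Notch3 were arranged in opposite ways. Notch1, the receptor whose loss is selected for in ageing esophageal epithelium, stood below 3 at 104, 99.7 and 93.4 CPM in the Low libraries and at 147, 94.6 and 145 CPM in the High libraries. Above 3 it stood at 42.2, 46.3 and 25.9 CPM in the Low libraries and at 57.7, 32.6 and 58.4 CPM in the High libraries. The layers did not overlap, and the fitted difference was -0.97 ± 0.09, 1.95-fold lower in the Krt13-high layer (limma, adjusted p = 1.10e-06). With the layers divided at 2 it was -0.50 and at 4 it was -1.44, called under both. In unscaled CPM the ratio of the layers within a library was between 0.278 and 0.465, a larger fall than the fitted one.

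Notch3, a receptor whose gene is known as a Notch target in several tissues, had 10.6, 9.42 and 9.95 CPM below 3 in the Low libraries, and 14.0, 7.79 and 15.5 CPM in the High libraries. Above 3 it had 26.8, 32.8 and 32.1 CPM in the Low libraries and 34.7, 19.3 and 45.5 CPM in the High libraries. It was higher in the Krt13-high layer in 6 of 6 libraries, without overlap, by 2.48-fold to 3.48-fold in CPM within a library. After scaling, the fitted difference was 1.82 ± 0.09, 3.53-fold higher (limma, adjusted p = 8.12e-09), above each of these unscaled ratios.

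Notch2, the third receptor, differed less and less stably. It ranged from 4.74 to 26.5 CPM below 3, with a median of 10.9, and from 7.94 to 48.0 CPM above, with a median of 11.1. The highest value in both layers was that of the Cyto-ID High F6 library, and the layers overlapped. The fitted difference of 0.67 ± 0.14 passed the threshold (limma, adjusted p = 0.00135), but the call was lost with plain CPM (0.28, adjusted p = 0.107), with cells thinned to 1000 UMIs (0.54, adjusted p = 0.0675) and without the library block (adjusted p = 0.242). In CPM it was higher in 5 of 6 libraries, the exception being Cyto-ID Low F6.

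Of the targets, Nrarp followed Notch3. Nrarp, which encodes an ankyrin-repeat protein that binds the Notch nuclear complex and limits it, stood below 3 at 27.6, 25.7 and 23.0 CPM in the Low libraries and at 46.7, 31.3 and 40.8 CPM in the High libraries. Above 3 it stood at 76.6, 86.1 and 55.7 CPM in the Low libraries and at 102, 112 and 83.1 CPM in the High libraries. The layers did not overlap. In unscaled CPM the rise within a library was between 2.04-fold and 3.59-fold. After scaling, the fitted difference was 1.80 ± 0.11, 3.49-fold higher in the Krt13-high layer (limma, adjusted p = 4.09e-08).

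Hes1, a repressor of the bHLH class and a widely used readout of Notch activity, did not follow Nrarp. Below 3 it ranged from 322 to 1059 CPM over libraries with a median of 710, and above 3 from 274 to 793 CPM with a median of 643. The layers overlapped widely, and the libraries differed from each other more than the layers did. The difference did not pass the threshold (0.16 ± 0.08, 95% interval -0.01 to 0.33, limma adjusted p = 0.0930), and with plain CPM it was called in the other direction, at -0.26 (adjusted p = 0.00292). Without the Cyto-ID High F6 library it was called higher, at 0.22 (limma, adjusted p = 0.0293). Hey1, a related repressor, had 57 UMIs in all, 50 below 3 and 7 above, and was not tested. With all libraries pooled this was a 6.02-fold difference per UMI (95% interval from the UMI counts alone 2.72 to 15.7). The 7 above were in Cyto-ID Low F2 (3) and Cyto-ID High F2 (4) alone.

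**Figure D1:**
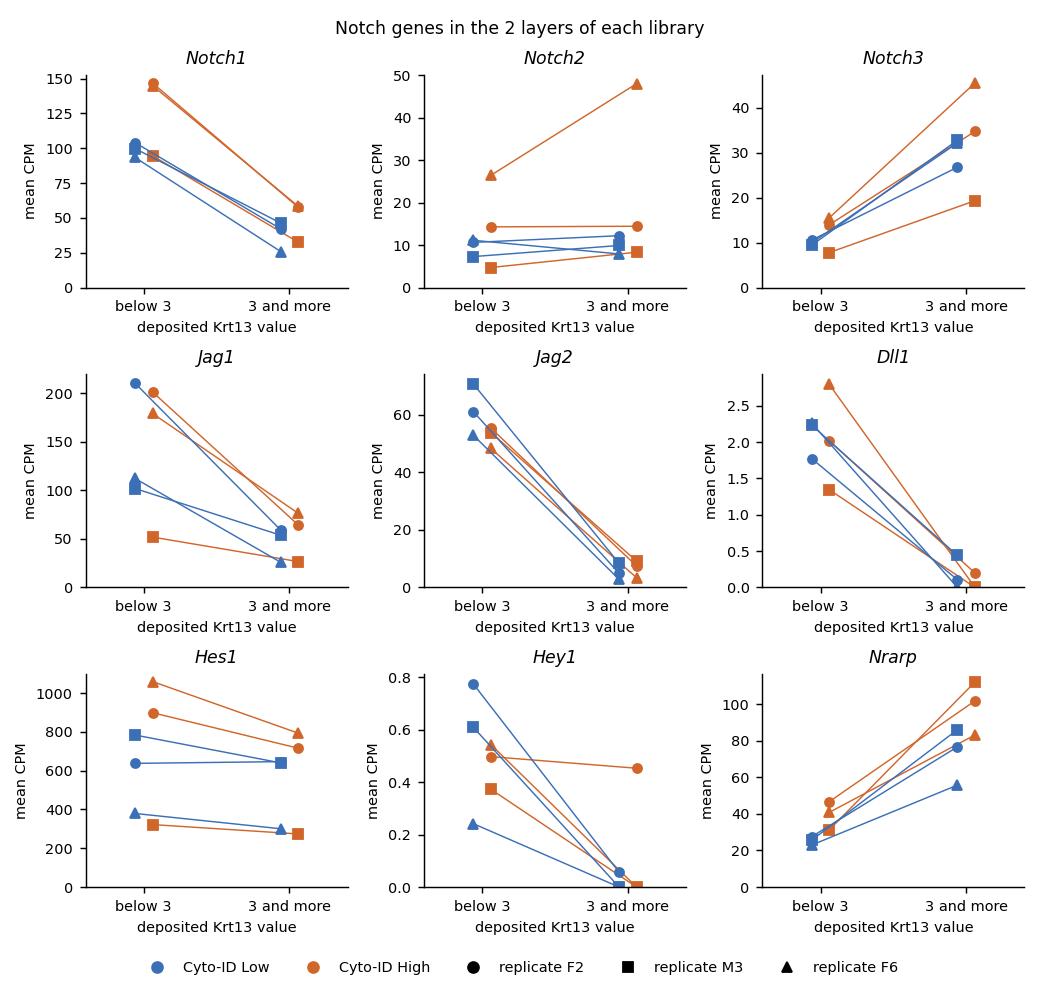
Level of each member in CPM (UMIs per 1000000, averaged over cells) in the Krt13-low and Krt13-high layer of each of the 6 libraries, with points for libraries and lines joining the layers of a library. Jag1, Jag2 and Notch1 are lower and Notch3 and Nrarp higher in the Krt13-high layer in 6 of 6 libraries. Dll1 is also lower in 6 of 6, but it passed the filter on low values only through the Krt13-low layer. Hes1, whose direction depends on the scaling, differs more between libraries than between layers.

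To see where along Krt13 these differences arose, each library was divided into 6 bins of the deposited Krt13 value, each of at least 168 cells. The bin at 0 also holds cells in which Krt13 was not sampled, which are more frequent at low depth. Values are means ± SD over the 6 libraries in plain CPM, and no test was made. In plain CPM, 57.3% of all genes were called lower and 15.0% higher in the layer test. Notch1 was level at 112 ± 24.3 CPM where Krt13 was 0, 112 ± 29.0 above 0 and below 2, and 118 ± 21.7 from 2 to below 3. It then dropped in all 6 libraries at each further step, to 67.8 ± 13.5, 35.7 ± 12.8 and 16.9 ± 2.62 CPM. Its decrease thus began at the bin of 3 to below 4.

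Jag2 had no such plateau. It went from 68.2 ± 15.3 CPM at 0 to 56.8 ± 9.01 and 40.6 ± 11.03 in the next bins. It then reached 12.6 ± 7.79, 3.02 ± 0.527 and 1.09 ± 1.16 CPM, 62.4-fold below the first bin in the means. That ratio is unstable, since in the last bin Jag2 was at 0 CPM in Low F6 and High F6 and at 0.181 CPM in High F2. The step from 2 to below 3 into 3 to below 4 was downward in 6 of 6 libraries and was 3.22-fold in the means. Jag1 went from 163 ± 79.5 CPM at 0 to 30.2 ± 12.8 at 5 and more, a 5.38-fold range, and was lower in the last bin than in the first in 6 of 6 libraries. Dll1 went from 2.34 ± 0.614 to 0.0385 ± 0.0942 CPM.

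Nrarp and Notch3 rose along the same bins but not in step. Nrarp was higher in all 6 libraries at the first step, from 24.5 ± 9.66 to 33.5 ± 11.5 CPM, and reached 48.3 ± 13.6, 74.6 ± 12.6, 85.5 ± 22.5 and 103 ± 28.7 CPM, 4.22-fold in all. Notch3 was close to level at that step (8.61 ± 1.86 and 9.72 ± 4.12 CPM, higher in 4 of 6 libraries) and then was higher in 6 of 6 libraries at the next, at 18.9 ± 8.53 CPM. It reached 40.7 ± 9.65 CPM at 5 and more, 4.73-fold over the first bin. Thus Nrarp and Notch3 were both already higher in the bin of 2 to below 3, where Notch1 was not yet lower.

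Hes1 went from 697 ± 307 to 525 ± 209 CPM between the first and the last bin and was lower in the last in 6 of 6 libraries, on the plain CPM scale that in the layer test also gave the lower direction. Notch2 went from 12.2 ± 7.10 to 20.4 ± 19.6 CPM, higher in 5 of 6 libraries, and the Cyto-ID High F6 library was the highest in the last bin at 59.8 CPM. Hey1 was at 0.444 ± 0.335 CPM in the first bin and at 0 in every library in the last.

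**Figure D2:**
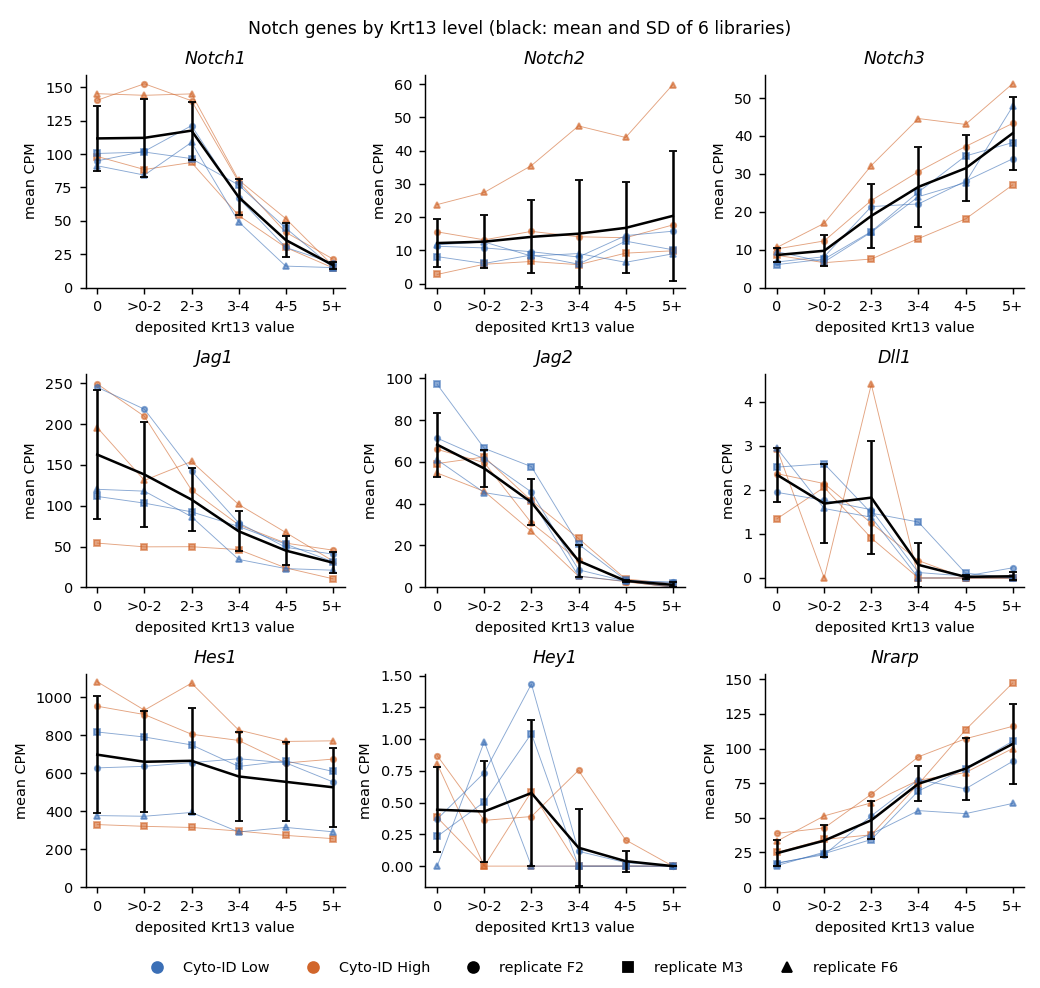
Level of each member in CPM along 6 bins of the deposited Krt13 value, with thin lines for libraries and a black line and bars for the mean and SD over 6 libraries. Jag1 and Jag2 decrease from the first bins on, Notch1 is level up to below 3 and then drops, Nrarp and Notch3 increase, and Hes1 and Notch2, whose layer direction or call depends on the scaling, have bars wider than their trend.

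Over these 36 library by bin means, on the log2(CPM + 1) scale, Pearson correlations between members described the same arrangement. The points share libraries and depth, so the values are a description only. Notch3 and Nrarp correlated at 0.85, Notch1 and Jag2 at 0.89, Notch1 and Jag1 at 0.86, and Jag2 and Dll1 at 0.83. The value for Dll1 rests on 174 UMIs in all, of which 9 were at a Krt13 value of 3 and more, near the floor. Notch3 and Jag2 correlated at -0.87, and Hes1 and Nrarp at -0.02. The last value pools libraries of very different Hes1 levels, and from the first to the last bin Hes1 was lower and Nrarp higher in plain CPM in each of the 6 libraries. Among the members, Hes1 correlated most with Jag1, at 0.66.

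Among 6959 genes of at least 10 CPM, the 3 most like each member over the 36 points were as follows. Notch1 was most like Ncl (0.95), which encodes nucleolin, Col17a1 (0.94) and Mgat5 (0.94), a glycosyltransferase of N-glycans. Jag2 was most like Agrn (0.98) and Col18a1 (0.97), which encode the basement membrane proteins agrin and collagen XVIII, and Siva1 (0.98). Jag1 was most like Pcbp2 (0.97), Irs2 (0.95) and Tra2b (0.94), which encode an RNA-binding protein, an insulin receptor substrate and a splicing factor. The genes most like Notch3 were Tgm1 (0.94), the transglutaminase of the cornified envelope, Krt6a (0.94) and Skint3 (0.93). Those most like Nrarp were Cyp4f39 (0.93), Lypd3 (0.93) and Dmkn (0.91). For Notch2 they were Tomm6 (0.92), Uqcrb (0.91) and Mtln (0.90), which encode mitochondrial proteins, and for Hes1 they were Erh (0.90), Tmco1 (0.89) and mt-Nd3 (0.89). The points also differ by library, so such likeness need not run along Krt13. From the first to the last bin, mean Mtln went from 69.8 to 65.0 CPM while Notch2 went from 12.2 to 20.4 CPM. Mean Tmco1 went from 61.0 to 62.9 CPM while Hes1 went from 697 to 525 CPM. Dll1 and Hey1 were under 10 CPM and were not compared.

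The second question was whether the members differed between organoids of Cyto-ID High and Cyto-ID Low founders. No member was called. With limma, 0 of 8 members tested were called over all cells, 0 of 8 in the Krt13-low layer and 0 of 7 in the Krt13-high layer, against 0.172%, 0.23% and 0.206% of all genes tested. At an unadjusted p under 0.05 these counts were 1, 1 and 0 of the members and 940, 832 and 839 of all genes.

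Nrarp was the member at an unadjusted p under 0.05 both over all cells and in the Krt13-low layer. In the Krt13-low layer the Low libraries lay between 23.0 and 27.6 CPM and the High libraries between 31.3 and 46.7 CPM. These ranges did not overlap, and how many of all genes separated the groups in this way was not counted. The difference was 0.76 ± 0.20 on the log2 scale (95% interval 0.30 to 1.21) and did not pass adjustment over all genes (limma, unadjusted p = 0.00443, adjusted p = 0.409). Over its alternative settings it ranged from 0.60 to 0.90 and the adjusted p from 0.125 to 0.999. In the Krt13-high layer the groups overlapped, High was above Low in 3 of 3 pairs of the same label, and the difference was 0.48 ± 0.25 (limma, adjusted p = 0.692). For the Krt13-low layer, plain CPM moved the median difference of all genes from -0.00 to -0.14.

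Notch1 gave a difference of 0.50 ± 0.23 in the Krt13-low layer (95% interval -0.01 to 1.02, limma adjusted p = 0.709). The F2 and F6 High libraries were above all Low libraries there, and the M3 High library, at 94.6 CPM, was within the range of the Low libraries. Notch3 gave 0.38 ± 0.27 in that layer (limma, adjusted p = 0.804), and the High M3 library had the lowest Notch3 of all 6. Notch2 gave 0.64 ± 0.45 over all cells (95% interval -0.39 to 1.67, limma adjusted p = 0.742), 0.48 ± 0.50 in the Krt13-low layer and 0.85 ± 0.51 in the Krt13-high layer (95% interval -0.29 to 1.98, limma adjusted p = 0.713). It was higher in High in 2 of 3 pairs, and over the alternative settings its difference over all cells ranged from 0.04 to 1.09.

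Jag1 and Jag2 did not pass the test in either layer, and Dll1, tested in the Krt13-low layer alone, did not pass there. Jag2 gave -0.07 ± 0.19 in the Krt13-low layer (95% interval -0.50 to 0.36) and 0.31 ± 0.39 in the Krt13-high layer, with adjusted p of 0.966 and 0.848 (limma). It was lower in High in 3 of 3 pairs of the same label in the Krt13-low layer and higher in 3 of 3 in the Krt13-high layer, with overlapping groups in both. Jag1 gave 0.03 ± 0.48 in the Krt13-low layer (95% interval -1.05 to 1.12, limma adjusted p = 0.997) and 0.25 ± 0.40 in the Krt13-high layer (95% interval -0.65 to 1.15, limma adjusted p = 0.887). Dll1 stood at 2.09 ± 0.274 CPM in the Krt13-low layer of the Low and 2.05 ± 0.726 CPM of the High libraries. The fitted difference after scaling was 0.06 ± 0.27 (limma, adjusted p = 0.975), of the other sign than the unscaled means and smaller than its error. These intervals show what the 3 libraries per group could and could not resolve, and not that the groups were alike.

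Hes1 and Jag1 varied by library within both groups. Over all cells Hes1 was lowest in the Cyto-ID High M3 library (298 CPM) and the Cyto-ID Low F6 library (345 CPM), and lay between 641 and 986 CPM in the other libraries. Jag1 was also lowest in these 2 libraries, at 39.0 and 74.4 CPM, and lay between 80.0 and 161 CPM in the others. They were 2 of the 3 libraries with the lowest median UMIs, and the third of these, Cyto-ID High F6, had the highest Hes1 of all (986 CPM). The part of depth in these differences was not tested. Hey1 was at 0.315 ± 0.170 CPM over all cells with Low and 0.355 ± 0.154 CPM with High founders, too low to test. Notch2 was highest in that same library, at 32.4 CPM against 6.56 to 14.4 CPM in the other libraries.

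**Figure D3:**
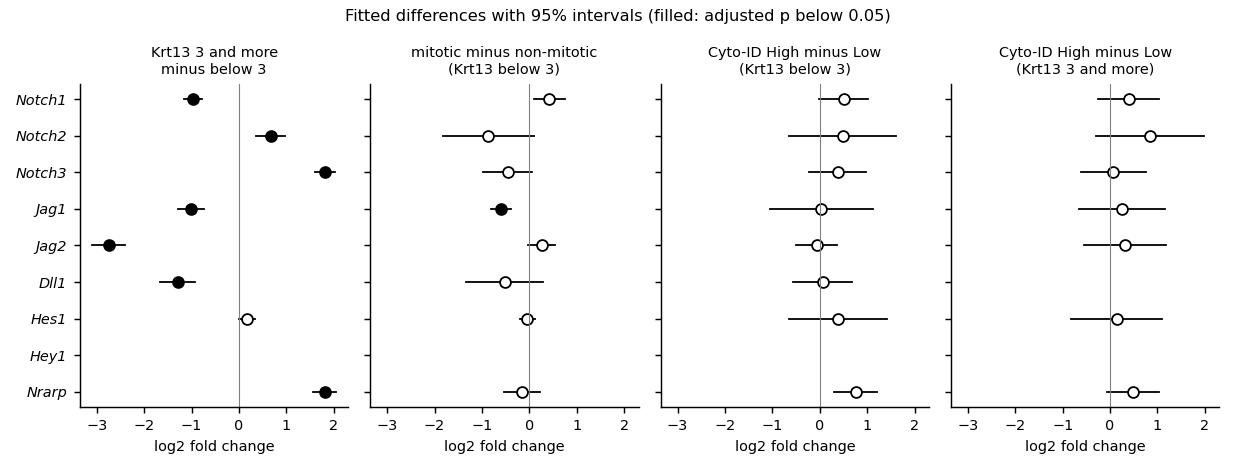
Log2 fold change of each tested member (circles, filled where the adjusted p passed 0.05) with its 95% interval from limma (lines), for the Krt13-high against the Krt13-low layer, mitotic against non-mitotic cells, and Cyto-ID High against Low within each layer. In the layer comparison 7 members are filled, of which Dll1 passed the filter only through the Krt13-low layer and Notch2 loses its call with plain CPM, Hes1 is open and is called lower with plain CPM, and between founders no member is filled.

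Whether the layer differences themselves differed between founders was tested as the difference of the within-library layer differences. None of the 8 members tested was called with limma, and 0 had an unadjusted p under 0.05, against 0.231% of all genes called (9 higher and 19 lower, or 11 and 9 with plain CPM) and 1223 genes at an unadjusted p under 0.05. The smallest unadjusted p was that of Hes1, at -0.26 ± 0.14 (limma, adjusted p = 0.547). For Jag2 the difference was 0.38 ± 0.30 (95% interval -0.26 to 1.02), beside a layer difference of -2.75. The other members lay between -0.32 (Notch3) and 0.36 (Notch2), with Jag1 at 0.21, Notch1 at -0.12, Dll1 at -0.20 and Nrarp at -0.28.

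The third comparison was between mitotic and non-mitotic cells of the Krt13-low layer, with cells of at least 3 UMIs of a 12-gene mitotic list, after thinning to 1000 UMIs, set against cells with 0. Libraries held 42 to 452 mitotic cells, the fewest in Cyto-ID Low F6, and mitotic cells had more UMIs than the non-mitotic ones in every library. Jag1 was lower in mitotic cells and no other member was called. Jag1 stood at 175, 97.6 and 88.2 CPM in mitotic cells of the Low libraries against 207, 106 and 112 CPM in non-mitotic cells. In the High libraries it stood at 121, 31.1 and 122 CPM against 213, 48.1 and 188 CPM. It was lower in 6 of 6 libraries, at ratios of 0.568 to 0.924. Mitotic cells held only 12 Jag1 UMIs in Cyto-ID Low F6 and 25 in Cyto-ID High M3.

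The fitted difference of Jag1 was -0.60 ± 0.10, 1.51-fold lower (limma with the library as a block, adjusted p = 0.00114), and it was lost without that block (adjusted p = 0.453). Of all genes tested, 7.19% were called higher and 9.45% lower, and plain CPM called 1313 higher and 614 lower and moved the median of all genes from -0.13 to -0.01. Whether the Jag1 difference itself differed between founders was not tested. Notch1 was higher in mitotic cells in 5 of 6 libraries but missed the threshold (0.42 ± 0.15, limma adjusted p = 0.0776). It was called with plain CPM (0.56, adjusted p = 0.0313), with the layers divided at 4 (0.48, adjusted p = 0.0260) and without the Cyto-ID High M3 library (0.55, limma adjusted p = 0.0288).

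Jag2 was higher in mitotic cells in 5 of 6 libraries, at 0.26 ± 0.13 (limma, adjusted p = 0.199). Nrarp, at -0.15 ± 0.17, was called lower only without the Cyto-ID Low F6 library (-0.35, limma adjusted p = 0.0379). Hes1 differed by -0.05 ± 0.07 (95% interval -0.20 to 0.11), and over the alternative settings it ranged from -0.21 to 0.09. Notch2 (-0.87 ± 0.44), Notch3 (-0.46 ± 0.24) and Dll1 (-0.52 ± 0.37) were not called, with limma adjusted p of 0.206, 0.221 and 0.363. Hey1 had 6 UMIs in mitotic cells and was not tested.

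The rest of the pathway was followed in a list of 62 genes grouped by role, of which 47 were tested between the layers. Of these, 3 (Notch4, Lfng and Dtx4) passed the filter only through the layer where they were high and are given as levels. Of the other 44, 10 were called higher and 13 lower in the Krt13-high layer with limma, against 31.3% and 28.5% of all genes, so the list's share of calls was near that of all genes. The median difference of all 47 was -0.01, as against -0.00 for all genes tested. Ctbp1, Rbpj and the genes named here with a mean under 10 CPM were named after their values were seen.

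Of the other receptors and ligands, Notch4, a receptor best known from blood vessels, was at 0.485 ± 0.404 CPM (SD over 6 libraries) below 3 and 5.22 ± 1.94 CPM above. The 4 endothelial markers summed to at most 1.18 CPM below 3 and 0.491 CPM above, with Cdh5 at 0. Dlk2, a Delta-like membrane protein, was called lower, from 25.0 ± 13.6 to 2.86 ± 3.16 CPM. Dlk2 was also called lower with plain CPM. Among the genes of ligand uptake and glycosylation, 2 of 5 were called lower and 0 higher, against 28.5% and 31.3% of all genes. Both were also called lower with plain CPM, which called 57.3% of all genes lower. They were Mib1, the ubiquitin ligase that starts ligand endocytosis (-0.29 ± 0.09), and Poglut1, which adds glucose to Notch (-0.61 ± 0.12). Lfng, a Fringe glycosyltransferase, was at 4.12 ± 1.33 CPM below 3 and 0.531 ± 0.591 CPM above.

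Of the proteases that cut the receptor, 6 of 9 tested were called higher and 1 lower, with 31.3% and 28.5% of all genes as the background here and for the groups that follow. With plain CPM that background was 15.0% higher and 57.3% lower. Psenen, an accessory subunit of γ-secretase, was called higher at 0.96 ± 0.07 and also with plain CPM, at 0.53. It went from 172 ± 11.02 CPM below 3 to 249.9 ± 21.1 CPM above. Adam17, a sheddase of the receptor, was called higher at 0.61 ± 0.10, and was not among the 2 proteases called higher with plain CPM. Furin, the convertase that first cuts the receptor, was called lower at -0.22 ± 0.08. With plain CPM, 2 proteases were called higher and 2 lower.

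In the nuclear complex, 1 of 9 tested was called higher and 2 lower. These were the acetyltransferases Kat2b (0.73 ± 0.18) and Kat2a (-0.74 ± 0.13) and the coactivator Maml2 (-0.99 ± 0.14), each with a mean over both layers under 10 CPM. Rbpj, the DNA-binding partner of the receptor, was at 32.8 ± 7.73 CPM below 3 and 21.6 ± 2.99 CPM above, with a difference of -0.15 ± 0.09 (limma, adjusted p = 0.168), and it was called lower with plain CPM (-0.56, limma adjusted p = 0.000192). With plain CPM, 0 of the complex were called higher and 7 lower, where 57.3% of all genes were called lower.

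Among the corepressors, Tle4 of the Groucho family was called higher (1.03 ± 0.16). The histone deacetylase Hdac2 (-0.50 ± 0.08), Tle1 (-0.37 ± 0.14) and Ctbp1 (-0.24 ± 0.07) were among the 4 called lower, of 12 tested. With plain CPM, 1 was called higher and 11 lower, where 57.3% of all genes were called lower. In receptor turnover, 2 of 7 were called higher, Dtx3l (1.10 ± 0.15) and the ubiquitin ligase Itch (0.47 ± 0.09), and 2 lower, Dtx3 (-1.15 ± 0.13) and Numbl (-1.41 ± 0.20). With plain CPM 1 was called higher and 5 of 8 lower, Dtx4 included, and Itch was not called. Dtx4 was at 3.10 ± 1.048 CPM below 3 and 0.385 ± 0.338 CPM above. Hes6, the only other Hes or Hey gene tested, was called lower, from 107 ± 40.6 to 64.2 ± 35.4 CPM.

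Between founders, limma called 0 of 47 genes of the pathway list over all cells, 0 of 46 in the Krt13-low layer and 0 of 45 in the Krt13-high layer, with 2, 0 and 2 at an unadjusted p under 0.05. Of all genes 0.172%, 0.23% and 0.206% were called, and 940, 832 and 839 of 11645, 11730 and 11141 were at an unadjusted p under 0.05. In mitotic cells, 1 of the 46 genes that passed the filter in both classes was called higher and 0 lower, against 7.19% and 9.45% of all genes, with 10 of all 49 tested at an unadjusted p under 0.05 beside 3714 of 12260 genes. It was Hdac2, from 29.2 ± 6.48 to 45.4 ± 14.7 CPM (0.47). Neurl1b, an E3 ligase of Notch ligands that passed the filter only through the mitotic class, was at 0.190 ± 0.274 CPM in non-mitotic and 4.76 ± 2.67 CPM in mitotic cells.

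**Figure D4:**
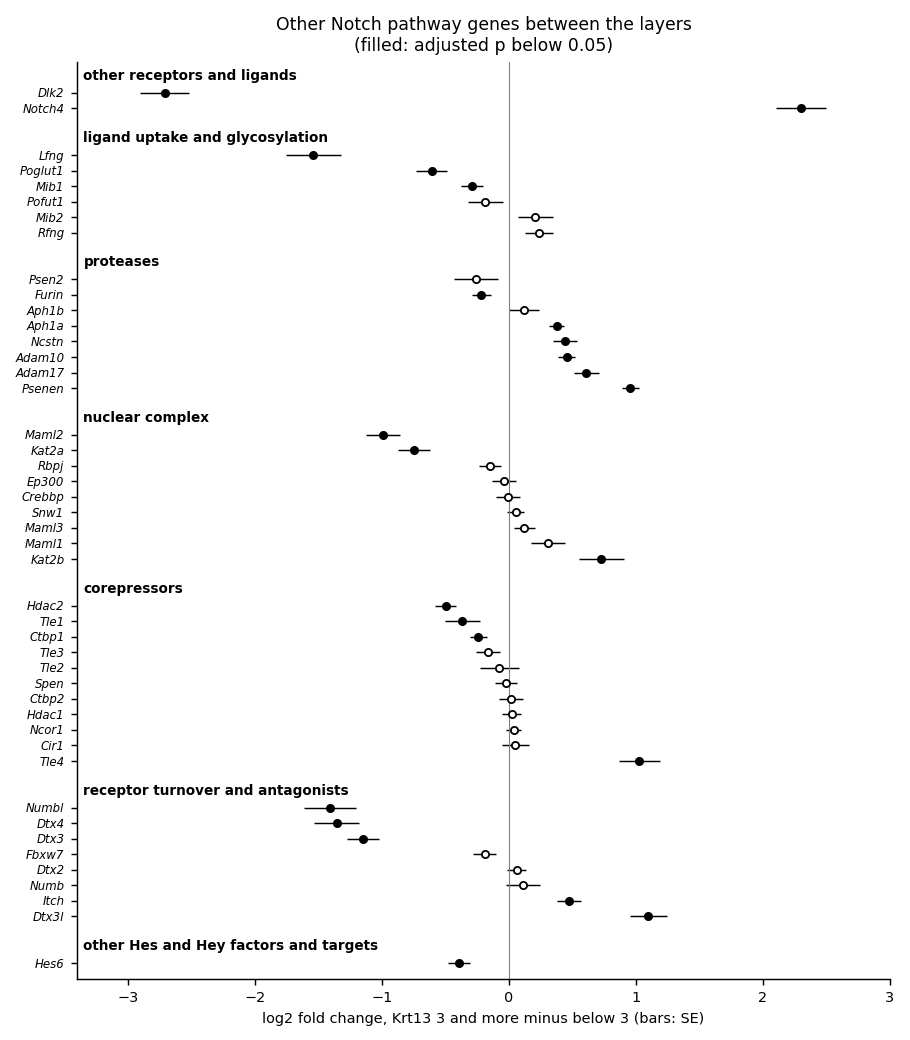
Log2 difference between the Krt13-high and the Krt13-low layer for 45 of the 47 tested genes of the pathway list, grouped by role, from limma with trimmed-mean scaling (circles, filled where called, with lines for the SE). Notch4, Lfng and Dtx4 passed the filter only through the layer where they are high. The called proteases other than Furin lie above 0, but with plain CPM 2 proteases are called higher and 2 lower.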

How the data were processed

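The deposited table of each library holds a natural log value for each gene in each cell. The labels do not state the unit. From the values, it is the natural log of 1 plus the UMI count scaled to 10000 per cell, and 100% of values were whole multiples of a cell's smallest step (tolerance 1e-06), so UMIs could be recovered. Per the submitters' processing notes, the builds mm10 and GRCm38 and the tools Cell Ranger 6.0.0 and Seurat 4 were used, with no role given. The counting rule and the handling of doublets are not given in the sources used here. No doublet caller was run, no doublets were removed, and free RNA was not measured.

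Cells with at least 500 detected genes were kept. CPM was averaged per gene over all cells of a library or over a class of them, divided by factors of the trimmed mean of M values (TMM, trimming 30% of log ratios and 5% of levels) and taken as log2(CPM + 1), which understates the change of low genes. Genes of at least 1 CPM in at least 3 means (libraries, or classes within libraries) entered limma 3.58.1 (R 4.3.3) with a mean-variance trend and Benjamini-Hochberg adjustment over all genes tested, threshold 0.05. Founders were compared without a block, and layers and mitotic classes with the library as a block. The test was also run on simulated data with a set spread between libraries that was not taken from these data. That run does not show how the test behaves at the spread seen here. Tables were read with Python 3.11.15 and pandas 2.3.3.

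The members and the gene lists were chosen with earlier results of these data known. All members are described. Pathway genes were named where called with a mean of at least 10 CPM, at most the 3 largest per role and direction, and others only as stated; 2 genes of the list are counted but not otherwise reported here. Replicate labels come from the titles. Over 8878 genes, deviations from the group means correlated between same-labelled libraries at 0.76 (F2), 0.58 (M3) and 0.15 (F6). Low F2 and High F6 also correlated at 0.17. The labels were used to describe pairs and for the replicate block, an alternative setting. The main fits between founders did not use them, so their p-values and intervals ignore any pairing.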

Additional observations from a re-analysis of the deposited data

How the results depend on the processing

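The 7 members called between the layers, with Dll1 counted, became 6 with cells thinned to 1000 UMIs or without the library as a block. They became 8 without a filter on low values (adding Hey1) or without Cyto-ID High F6 (adding Hes1), and stayed at 7 otherwise. The 7 with plain CPM held Hes1, called lower, in place of Notch2. With plain CPM, Hes1 reversed to -0.26 between the layers; the cause was not tested. For mitotic cells the count of 1 member became 2 with plain CPM, 2 with the layers divided at 4 and 0 with no replicate block, and 1 to 2 with 1 library left out (2 without Cyto-ID High M3 or Cyto-ID Low F6); the cause was not tested.

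Between founders, the replicate block left 0 members called and raised the genes called from 20 to 68 over all cells, from 27 to 81 in the Krt13-low layer, from 23 to 86 in the Krt13-high layer and from 28 to 277 for the layer difference. It changed no call of a member. Without a filter on low values these 4 limma counts were 0, 2, 1 and 0 (1343 and 1384 genes at an unadjusted p under 0.05 for the zeros), and with a pseudocount of 0.1 CPM they were 5, 19, 6 and 7. Summed UMIs gave 12 over all cells. Cells of at least 1000 genes gave 13, 16 and 2 over all cells, in the Krt13-low layer and for the layer difference, which was 14 with the layers divided at 2 and 8 at 4. Leaving out 1 library gave 3 to 20 over all cells (fewest without High F6), 6 to 28 in the Krt13-low layer (fewest without Low F6), 0 to 29 in the Krt13-high layer (fewest without High F6, with 465 genes at an unadjusted p under 0.05) and 6 to 111 for the layer difference (most without Low M3).

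Without the library block, genes called between the layers numbered 4123 in place of 7261, and 728 in place of 2039 in mitotic cells. The latter were 857 with thinned cells, 1149 with mitotic cells of at least 5 UMIs and 1358 without High F2. Depth limits Dll1 and Hey1 most, with 174 and 57 UMIs. The number of mitotic cells, from 42 in Cyto-ID Low F6 to 452 in Cyto-ID High F6, limits the precision of the mitotic comparison.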
